A study of Mus musculus with 10 samples.

Results

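The ATF4 amino acid stress program was followed through 39 genes, named by symbol from the ATF4-CHOP stress response and from the synthesis, transport and one-carbon metabolism of amino acids. All 39 symbols were found in a count table of 52550 mouse genes, and 35 of them reached a sum of 10 counts across the libraries, as did 20269 genes of the table. Eif2s2, Slc7a5 and Vldlr were listed at 0 in each of the 10 libraries, and Slc6a9 had 2 counts, so no value of these 4 genes was compared. RNA was sequenced from MLL-AF9 cells, which are hematopoietic stem and progenitor cells of C57BL/6 mice aged 8 to 20 weeks that were transformed by the MLL-AF9 fusion gene of acute myeloid leukemia. For the MLL-AF9-i139 cells the methods also describe tetR-KRAB, a repressor that doxycycline (DOX) releases from the vector. They do not state it for the eGFP cells. MLL-AF9-i139 cells, 3 clones picked as colonies, carried pCW-miR-139 as the vector under this control, and MLL-AF9-ieGFP cells, 1 clone, carried eGFP as the control cargo. DOX was given at 5 µg/mL for 48 h to MLL-AF9-i139 clones 1 and 2 and for 72 h to clone 3, and to the eGFP clone for 48 h and for 72 h, each with an untreated culture. This gave 3 libraries with and 3 without DOX for MLL-AF9-i139, and 2 with and 2 without for MLL-AF9-ieGFP. The labels give no time for the untreated MLL-AF9-i139 cultures. Clone 3 is the MLL-AF9-i139 clone with DOX for 72 h, so its clone and its time cannot be told apart. The eGFP libraries are cultures of 1 clone at 2 times. Their p-values come from fits that share the estimate of the spread with the miR-139 clones, so they do not measure the spread between eGFP cultures alone.

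ATF4 is a transcription factor whose protein is made when the initiation factor eIF2 is phosphorylated, by GCN2 (Eif2ak4) when amino acids run short or by PERK (Eif2ak3) when proteins misfold in the endoplasmic reticulum. It then drives genes for amino acid import, for the synthesis of serine, glycine, asparagine and proline, and for the folate cycle that carries their carbon units, together with feedback genes such as Trib3 and Ppp1r15a. Because ATF4 is controlled mainly at translation, its mRNA level is not a measure of its protein, and leukemic progenitors that divide fast are known for a high demand for serine and one-carbon units.

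Library totals ranged from 35133308 to 47089725 counts. Levels are given as CPM, counts scaled to the library total and the TMM factors of edgeR, and levels of different genes were not compared with each other. Of 9 myeloid progenitor markers, 8 had at least 10 counts in total, and Mpo, Elane and Ctsg, the granule proteins of these cells, made up most of the summed level, while Cd34 had at most 20 counts in a library and Itgam 6 counts in total. The markers of T and B cells (6 genes), erythroid cells (5 genes) and stroma (4 genes) summed to at most 1.77, 2.69 and 0.533 normalized CPM in any library. The myeloid progenitor sum was 2680.1 to 4201 normalized CPM in the untreated MLL-AF9-i139 clones and 4083 to 6435 with DOX. In the fit with a block for the clone, 4 of the 8 genes rose and 1, Hoxa9, fell, beside 7.05% and 5.33% of all genes. Elane had 1090, 1315 and 2004 normalized CPM in untreated clones 1, 2 and 3 and 913, 1013 and 2669 with DOX. It was thus lower with DOX in clones 1 and 2 and higher in clone 3. The sum of 6 neutrophil markers was 86.9 to 142 without and 87.7 to 161 with DOX. The summed level of megakaryocyte and mast cell markers (6 genes) was 10.0 to 12.2 without and 16.4 to 17.7 with DOX. Mcpt8 made up most of it, with 8.01, 8.57 and 10.4 in untreated clones 1, 2 and 3 and 13.7, 14.0 and 15.8 with DOX. Gp9 was higher with DOX in each clone, at no more than 0.814, Itga2b moved in different directions in the clones, and Fcer1a had 0 counts. The sum of macrophage markers (4 genes) was 2.15 to 2.99 without and 2.36 to 9.61 with DOX. The part of these shifts in the results below was not tested, and in bulk RNA fewer cells of a type and less RNA per cell cannot be told apart.

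The first comparison asked how the program changed when DOX was given to the miR-139 clones. In clones 1 and 2, at 48 h, the enzymes of serine, glycine and folate metabolism and several amino acid importers were lower with DOX, with Phgdh at 44.2% and 41.2% and Slc7a11 at 29.2% and 42.5% of the untreated level. In clone 3, at 72 h, most of these genes stayed close to the untreated level, with Phgdh at 103% and Slc7a11 at 88.4%. Among the regulators, Ddit4 stood at 428% and 417% of the untreated level in clones 1 and 2, and Atf4 itself at 76.8% and 74.5%. The median log2 change of the 35 genes was -0.38 in clone 1, -0.44 in clone 2 and 0.04 in clone 3, whereas the medians of the 20269 genes lay at -0.01, 0.01 and 0.00.

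**Figure D1:**
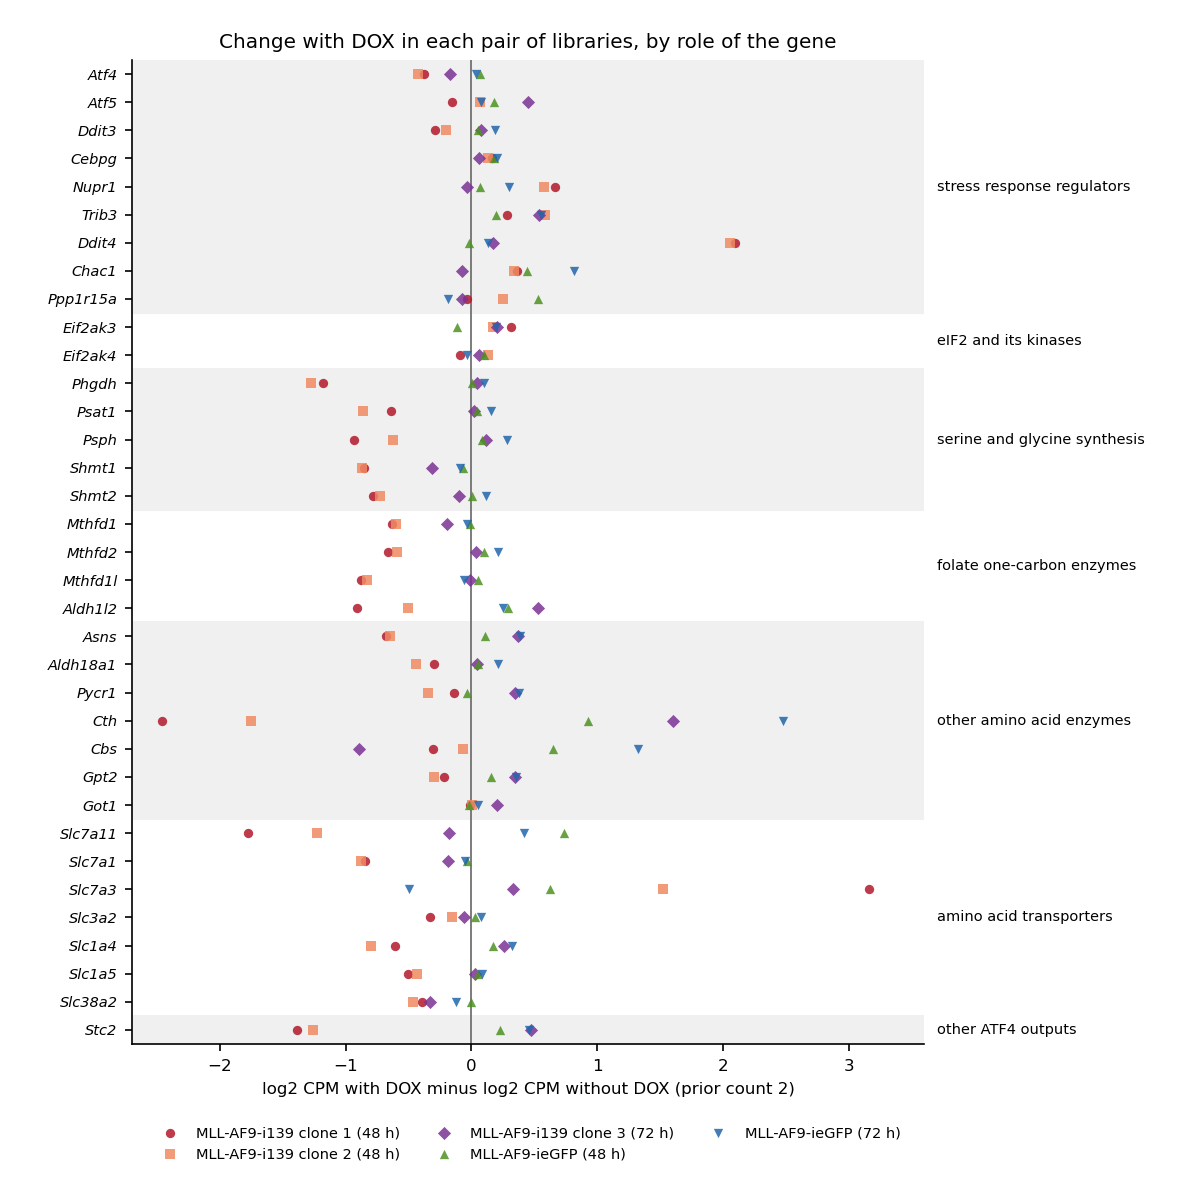
Difference in log2 CPM (prior count 2) between the library with DOX and the untreated library of the same clone or time, for the 35 genes with at least 10 counts, ordered by role. Circles and squares are MLL-AF9-i139 clones 1 and 2 (48 h), diamonds clone 3 (72 h), and triangles MLL-AF9-ieGFP at 48 h and 72 h. The serine, glycine and folate genes sit at -0.50 or below in clones 1 and 2, and at -0.31 to 0.53 in clone 3.

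Over the 3 clones taken as unpaired replicates, 0 of the 35 genes passed an adjusted p under 0.05 (quasi-likelihood test of edgeR, Benjamini-Hochberg adjusted over all 19223 genes tested), where 0.0624% of all genes passed. An unadjusted p under 0.05 was reached by 6 of the 35, a share of 17.1% beside 20.6% of all genes, with Ddit4 and Slc7a3 higher and Mthfd1, Shmt1, Slc38a2 and Slc7a1 lower, and DESeq2 called Ddit4 and Mthfd1, beside 8.09% of all genes. The 2 libraries of a clone come from the same cells, so the clone was also fitted as a block, where 9 of the 35 passed against 12.4% of all genes. Of these, Ddit4, Slc7a3 and Trib3 rose (7.05% of all genes) and Mthfd1, Shmt1, Shmt2, Slc38a2, Slc7a1 and Slc7a11 fell (5.33% of all genes). Without clone 3, and without the block, 19 of the 35 passed, 2 higher and 17 lower, against 21.7% of all genes (11.6% higher and 10.1% lower). DESeq2 with the block called Trib3 as higher (8.5% of all genes) and 8 members as lower (7.3%), among them Atf4, Psat1 and Mthfd1l, 15.8% of all genes in either direction. Members called under the remaining settings were Ddit4 alone with a filter of 1 count (2.17% of all genes), Ddit4 and Mthfd1 in a fit of all 10 libraries (6.09%), Ddit4 and Slc7a11 without clone 2 and with the block (3.17%), and 25 without clone 3 and with the block (43.4%). Leaving out clone 1 or clone 2 instead, without the block, left 0 of the 35 past the threshold, with 0.00555% and 0% of all genes. Levels in the 3 DOX libraries lay below all 3 untreated libraries for 2 of the 35 genes, beside 12.8% of all genes, and above them for 2 of the 35, beside 12% of all genes. The DOX libraries of clones 1 and 2 lay below each of the other 8 libraries, eGFP cells included, for 21 of the 35 genes, beside 18% of all genes with at least 10 counts, and above them for 2, beside 18.3%.

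**Figure D2:**
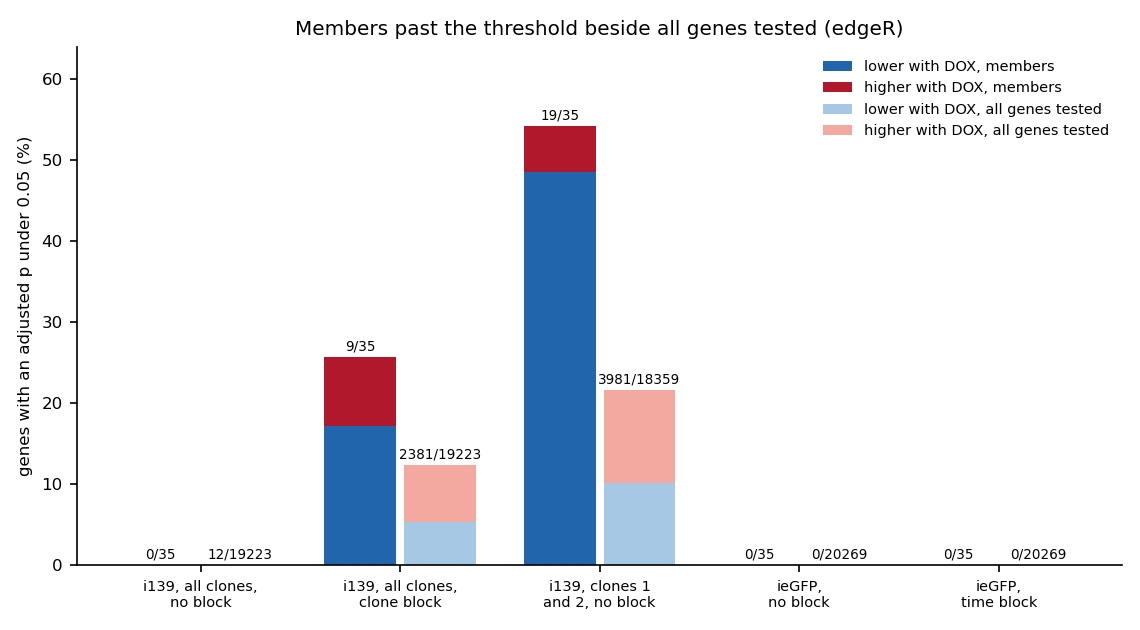
Share of genes with an adjusted p under 0.05 (edgeR) in percent, for the 35 genes (dark bars) and for all genes tested (light bars), in MLL-AF9-i139 and MLL-AF9-ieGFP under the designs named below the bars. Blue is lower and red higher with DOX, and the numbers above the bars are genes called of genes tested. With the clone block, 9 of 35 passed beside 12.4% of all genes, and 0 of 35 passed in MLL-AF9-ieGFP.

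The mRNAs of the 3 enzymes of serine synthesis had lower levels with DOX in clones 1 and 2, and none was called over the 3 clones. Phgdh, the dehydrogenase that commits 3-phosphoglycerate to serine (ENSMUSG00000053398, chromosome 3 from 98313170 to 98339990 of GRCm38), had 177, 205 and 248 normalized CPM in untreated clones 1, 2 and 3 and 78.2, 84.5 and 256 with DOX. In the eGFP clone it had 205 and 248 without and 205 and 267 with DOX (48 h, 72 h). The DOX libraries of clones 1 and 2 were the lowest of the 10, and the other 8 libraries overlapped. The log2 fold change over the 3 clones was -0.58 (standard error, SE, 0.42; adjusted p of 0.466 in edgeR). It was -0.80 with the clone block (SE 0.24; adjusted p = 0.0715), and -1.21 without clone 3 (adjusted p = 0.000454).

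Psat1, the aminotransferase of the next step, had 207, 228 and 338 normalized CPM without and 133, 125 and 343 with DOX in clones 1, 2 and 3, and 237 to 307 in the eGFP libraries. Its mean was 257 ± 70.4 without and 200.4 ± 124 with DOX (SD, n = 3 clones), so the clones differed more than the treatments. Its log2 fold change was -0.35 (SE 0.38; adjusted p of 0.643 in edgeR) and -0.48 with the block (SE 0.16; adjusted p = 0.088), against -0.73 without clone 3 (adjusted p = 0.00218). Psph, the phosphatase that releases serine, changed by -0.93 and -0.62 on the log2 scale in clones 1 and 2 and by 0.12 in clone 3, without a call over the 3 clones (adjusted p = 0.652, edgeR).

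The serine hydroxymethyltransferases turn serine into glycine and pass a carbon unit to folate, Shmt1 in the cytosol and Shmt2 in mitochondria. Shmt1 (ENSMUSG00000020534, chromosome 11 from 60788104 to 60811718) had 132, 144 and 161 normalized CPM without and 72.7, 79.0 and 129.8 with DOX in clones 1, 2 and 3. Its 4 eGFP libraries held 141 to 157, so it was lower with DOX in each of the 3 clones, and the DOX and untreated clones did not overlap. The log2 fold change was -0.62 without the block (SE 0.21; adjusted p = 0.165, edgeR), and -0.67 with it (SE 0.12; adjusted p = 0.0272), where it was called. Shmt2 (ENSMUSG00000025403, chromosome 10 from 127517123 to 127522444) had 210.2, 239 and 337 normalized CPM without and 122, 145 and 315 with DOX, and 239 to 305 in the eGFP libraries. Here the level in clone 3 was higher than in clones 1 and 2 with and without DOX. The change was -0.42 (SE 0.34; adjusted p of 0.521 in edgeR), and -0.52 with the block (SE 0.14; adjusted p = 0.0496). The 5 serine and glycine genes had a median log2 change of -0.86 and -0.87 in clones 1 and 2, 0.02 in clone 3, and 0.01 and 0.12 in the eGFP clone at 48 h and 72 h.

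The folate enzymes that carry and interconvert these carbon units followed the same order of clones. Mthfd1, the trifunctional cytosolic enzyme (ENSMUSG00000021048, chromosome 12 from 76255298 to 76319803), had 149, 153 and 141 normalized CPM without and 96.2, 101 and 123 with DOX in clones 1, 2 and 3. All 3 DOX libraries lay below the 3 untreated ones and below the eGFP libraries, which held 153 to 157. The fold change was -0.46 on the log2 scale (SE 0.11), with an adjusted p of 0.114 in edgeR's test, 0.0363 with the block and 0.0195 in DESeq2. Mthfd2, the mitochondrial dehydrogenase and cyclohydrolase, had 41.3, 47.5 and 81.7 normalized CPM without and 26.0, 31.5 and 83.8 with DOX, and 49.7 to 67.2 in the eGFP libraries. It was lower in clones 1 and 2 and near its untreated level in clone 3, and was not called over the 3 clones. The log2 fold change was -0.26 (SE 0.44; adjusted p of 0.778 in edgeR), and -0.39 with the block (SE 0.14; adjusted p = 0.11). Mthfd1l, the mitochondrial formate-tetrahydrofolate ligase, stood at 54.5%, 56.1% and 99.3% of the untreated level in clones 1, 2 and 3, and Aldh1l2, a mitochondrial 10-formyltetrahydrofolate dehydrogenase, at 52.5%, 69.9% and 145%.

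Among the other amino acid enzymes, Asns and Cth moved in opposite directions in the clones. Asns, the asparagine synthetase that is a classical ATF4 target (ENSMUSG00000029752, chromosome 6 from 7675169 to 7693254), had 69.8, 74.2 and 151 normalized CPM without DOX and 43.6, 47.3 and 195 with DOX in clones 1, 2 and 3. In the eGFP clone it had 77.2 and 105 without and 83.0 and 138 with DOX (48 h, 72 h). Clone 3 with DOX was the highest of the 10 libraries and clone 1 with DOX the lowest, and the log2 fold change over the 3 clones was -0.04 (SE 0.58; adjusted p of 0.979 in edgeR).

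Cth, the cystathionine gamma-lyase that makes cysteine from cystathionine, was read from few counts. Untreated clones 1, 2 and 3 held 33, 20 and 88 counts and the DOX libraries 4, 4 and 270, and the eGFP libraries at 48 h and 72 h held 21 and 26 without and 36 and 163 with DOX. The counts were lower with DOX in clones 1 and 2 and higher in clone 3 and in the eGFP clone at both times, and the fitted log2 change over the 3 clones of 1.07 (SE 1.37) was not called (adjusted p = 0.698, edgeR; 0.962 with the block). Aldh18a1 and Pycr1 of proline synthesis, the aminotransferases Gpt2 and Got1 and the cystathionine beta-synthase Cbs were not called with or without the block, and the 7 genes of this group had medians of -0.30, -0.35 and 0.34 in clones 1, 2 and 3.

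Of the 7 transporters measured, 1 rose and 3 fell with the block, beside 7.05% and 5.33% of all genes, and DESeq2 with the block called 2, both lower, beside 7.3% of all genes. Slc7a11, the cystine and glutamate exchanger xCT (ENSMUSG00000027737, chromosome 3 from 49892526 to 50443614), had 182, 114 and 167 normalized CPM without and 53.0, 48.7 and 148 with DOX in clones 1, 2 and 3. In the eGFP clone it had 149.8 and 146 without and 249 and 195 with DOX (48 h, 72 h). The clones were thus lower and the eGFP cultures higher with DOX. The log2 fold change in MLL-AF9-i139 was -0.88 without the block (SE 0.41; adjusted p = 0.267, edgeR), and -1.05 with it (SE 0.27; adjusted p = 0.0469), where it was called. It was not called with the block in DESeq2 (adjusted p = 0.0662).

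Slc7a1, the cationic amino acid transporter that imports arginine and lysine (ENSMUSG00000041313, chromosome 5 from 148327410 to 148399904), had 332, 375 and 416 normalized CPM without and 185, 203 and 366 with DOX, and 359 to 432 in the eGFP libraries. Its log2 fold change was -0.56 without the block (SE 0.24; adjusted p = 0.24, edgeR), and -0.63 with it (SE 0.14; adjusted p = 0.0359), where it was called. Slc38a2, the neutral amino acid transporter SNAT2 (ENSMUSG00000022462, chromosome 15 from 96687392 to 96699730), had 208, 220.1 and 271 normalized CPM without and 158, 159.6 and 216 with DOX. It was thus at 76.1%, 72.5% and 79.7% of the untreated level in clones 1, 2 and 3. It held 219 to 268 in the eGFP libraries, and its log2 fold change was -0.38 (SE 0.16; adjusted p of 0.223 in edgeR, 0.0293 with the block).

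Slc7a3, a further cationic amino acid transporter on chromosome X (ENSMUSG00000031297, from 101079210 to 101086020), was the member of this group that rose with the block (adjusted p = 0.0448, edgeR; 0.156 without it). Its counts were 2, 6 and 2 without and 36, 19 and 3 with DOX in clones 1, 2 and 3, and between 1 and 9 in the eGFP libraries. The rise thus rested on few counts in clones 1 and 2. Slc3a2, the heavy chain shared by several of these exchangers, and the neutral amino acid transporters Slc1a4 and Slc1a5 were not called with or without the block. Stc2, a secreted glycoprotein induced by ATF4, stood at 38.1% and 41.6% of the untreated level in clones 1 and 2 and at 139% in clone 3.

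**Figure D3:**
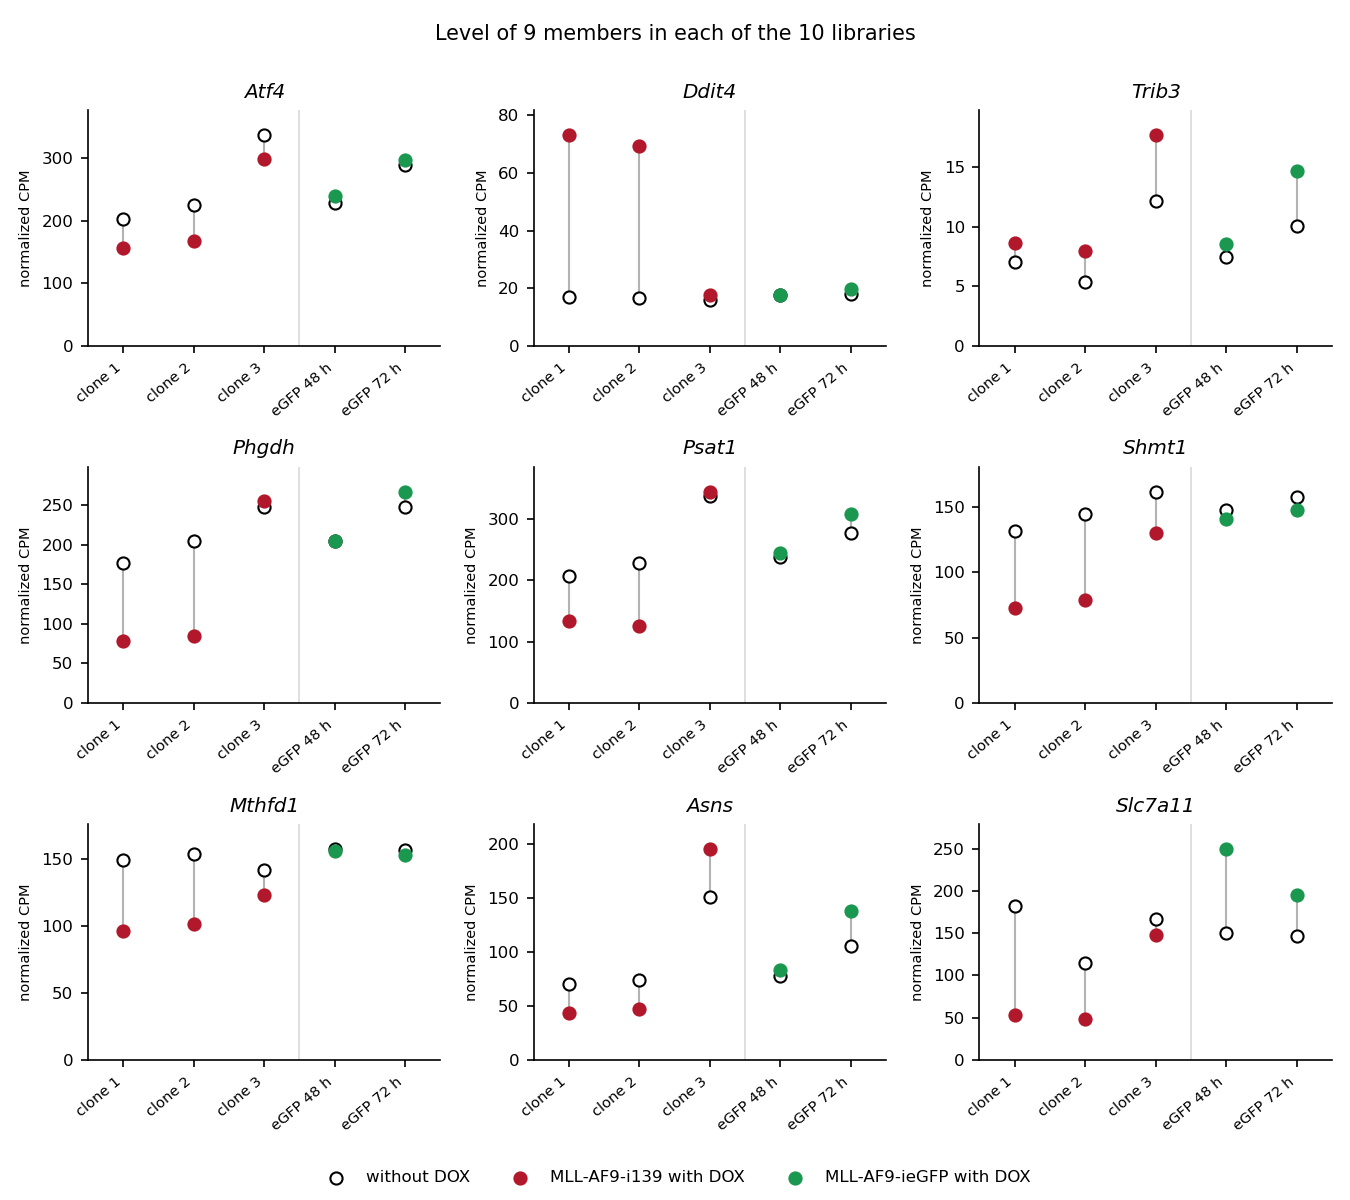
Normalized CPM of 9 genes in each of the 10 libraries, with the untreated library as an open circle and the library with DOX as a filled circle, joined by a line for each clone or time. Red marks MLL-AF9-i139, with DOX for 48 h in clones 1 and 2 and 72 h in clone 3, and green marks MLL-AF9-ieGFP. Each axis starts at 0. The lines of clones 1 and 2 are long for Phgdh, Slc7a11 and Ddit4, where clone 3 and the eGFP clone lie close to their untreated level or, for Slc7a11 in the eGFP clone, above it.

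The regulators of the response did not move in 1 direction. Atf4 (ENSMUSG00000042406, chromosome 15 from 80255184 to 80257541) had 203, 226 and 337 normalized CPM in untreated clones 1, 2 and 3 and 156, 168 and 299 with DOX. In the eGFP clone it had 229 and 289 without and 240.3 and 297 with DOX (48 h, 72 h). The level was lower with DOX in each of the 3 clones and the treatments overlapped, with a log2 fold change of -0.29 (SE 0.28; adjusted p of 0.594 in edgeR; 0.0506 with the block). Ddit3, which encodes the pro-apoptotic factor CHOP, had 10.6, 11.3 and 14.1 normalized CPM without and 8.67, 9.82 and 14.9 with DOX, and 11.6 to 13.5 in the eGFP libraries. It was not called (log2 fold change -0.10 with an SE of 0.23, adjusted p of 0.844 in edgeR), and 54.5% of its gene body lies inside other annotated genes, among them Mars on the opposite strand.

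Trib3, the pseudokinase that feeds back on ATF4 (ENSMUSG00000032715, chromosome 2 from 152337422 to 152344032), was higher with DOX in each of the 5 pairs of libraries. It had 7.05, 5.33 and 12.2 normalized CPM without and 8.60, 8.01 and 17.7 with DOX in clones 1, 2 and 3. The eGFP clone held 7.45 and 10.0 without and 8.54 and 14.7 with DOX. The log2 fold change in MLL-AF9-i139 was 0.49 (SE 0.39; adjusted p of 0.506 in edgeR, 0.0494 with the block), and 0.41 in MLL-AF9-ieGFP (SE 0.45).

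Ddit4, whose product REDD1 restrains the growth kinase mTORC1 (ENSMUSG00000020108, chromosome 10 from 59949669 to 59951834), was high with DOX in clones 1 and 2 and not in clone 3. It had 17.1, 16.6 and 15.7 normalized CPM without and 73.1, 69.3 and 17.7 with DOX in clones 1, 2 and 3, and 17.5 to 19.8 in the eGFP libraries. The high libraries were those of clones 1 and 2 with DOX, and the other 8 libraries lay between 15.7 and 19.8. The log2 fold change was 1.71 (SE 0.45; adjusted p of 0.12 in edgeR), called with the block, where it was 1.49 (adjusted p = 0.044), and with DESeq2 (adjusted p = 0.0379), but not in DESeq2 with the block (adjusted p = 0.0555), and it was 2.10 without clone 3 (adjusted p = 5.47e-05).

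Chac1, which degrades glutathione and lies downstream of CHOP, had 2.13, 2.46 and 10.7 normalized CPM without and 2.76, 3.13 and 10.2 with DOX, and 2.63 to 7.97 in the eGFP libraries, so that clone 3 stood apart from clones 1 and 2 in both treatments. It was not called (log2 fold change 0.08 with an SE of 0.71, adjusted p of 0.967 in edgeR). Of the eIF2 kinases among the members, Eif2ak3 and Eif2ak4, neither was called over the 3 clones with or without the block. Eif2ak3 was called as higher without clone 3 when the block was kept (adjusted p of 0.00123 in edgeR). Eif2ak3 had 29.2, 36.9 and 27.1 normalized CPM without and 36.4, 41.5 and 31.3 with DOX, and 22.0 to 32.6 in the eGFP libraries, with an adjusted p of 0.422 (edgeR), or 0.108 with the block. Eif2ak4 had 114, 99.1 and 106 without and 107, 109 and 110.4 with DOX, and 97.6 to 109 in the eGFP libraries, with an adjusted p of 0.82 (edgeR). Atf5 and Cebpg, bZIP factors of the same response, the stress protein Nupr1 and Ppp1r15a, which recruits a phosphatase to eIF2, were not called with or without the block. The 9 regulators had medians of 0.17 and 0.25 in clones 1 and 2 and 0.06 in clone 3.

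The eGFP clone asked what DOX did in cells with the eGFP vector in place of miR-139. Trib3, Chac1 and Cth were higher with DOX at 48 h and at 72 h, Slc7a11 was higher by 0.73 and 0.41 on the log2 scale, and the serine, glycine and folate genes lay between -0.09 and 0.29. None of the 35 genes passed the threshold in the fit of 4 groups (edgeR), where 0% of 20269 genes passed, and 1 of them, Cbs, had an unadjusted p under 0.05, as 1.28% of all genes had. With the time as a block 0 of 35 passed and 4 had an unadjusted p under 0.05 (1.92% of all genes), Cbs, Chac1, Cth and Trib3, and DESeq2 called 0, beside 0.00493% of all genes. In a fit of the 48 h cultures alone with the block, chosen after seeing the data, Slc7a11 was called as higher (0.224% of all genes), but this fit has 1 eGFP library with and 1 without DOX, so its p rests on the spread between the miR-139 clones. The log2 fold change was above 0 for 30 of the 35 genes, with a median of 0.13, beside 10521 of the 20269 genes and a median of 0.01.

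The interaction of DOX with the construct asked whether the change differed between MLL-AF9-i139 and MLL-AF9-ieGFP. Over all libraries it was called for 0 of the 35 genes (edgeR), against 0.00493% of all genes, and 4 (11.4%) had an unadjusted p under 0.05, beside 9.17% of all genes, Mthfd1, Cbs, Ddit4 and Slc7a11. With the replicate block 0 passed, beside 0.187% of all genes, while 17 (48.6%) had an unadjusted p under 0.05, beside 18.9% of all genes, and DESeq2 called 0 without the block (0.405% of all genes) and Slc7a11 with it (3.55%). Without clone 3, 13 of the 35 passed, against 10.2% of all genes: Ddit4 was called as higher in MLL-AF9-i139 (5.74% of all genes), and Cth, Mthfd1, Mthfd1l, Mthfd2, Phgdh, Psat1, Psph, Shmt1, Shmt2, Slc7a1, Slc7a11 and Stc2 as lower (4.44% of all genes). A comparison of cultures with DOX for 48 h, chosen after seeing the data, set clones 1 and 2 against the 48 h eGFP cultures and called 7 of the 35, beside 2.69% of all genes. With the block these numbers were 22 of 35 and 24.7%, and without clone 3 and with the block 22 of 35 and 28.4%. In the 48 h comparison without the block, the log2 difference between constructs was 2.10 for Ddit4 (SE 0.17) and -1.24 for Phgdh (SE 0.18). It was -2.28 for Slc7a11 (SE 0.33) and -1.56 for Stc2 (SE 0.18). The remaining members called in it had -0.91 (Mthfd1l), -0.80 (Psat1) and -3.585 (Cth, from few counts). This fit has 1 eGFP library with and 1 without DOX, which are assumed to vary as the clones do. Every fit of the interaction reads the eGFP construct from 1 clone. Fits with both times take its 48 h and 72 h cultures as replicates. Clone and construct are thus not separated on the eGFP side. Whether the calls for the interaction follow the construct or that clone was not tested.

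Clone 3 also differed from clones 1 and 2 in the untreated cultures. There the 35 genes had a median of 0.42 on the log2 scale in clone 3 minus the mean of clones 1 and 2, where the median of all genes was 0.00, and 30 of the 35 were higher in clone 3 (85.7%, beside 49.3% of all genes). The untreated eGFP culture at 72 h likewise exceeded that at 48 h by a median of 0.21, and 28 of the 35 were higher at 72 h (80%, beside 47.3% of all genes). Chac1 was higher by 2.20 in clone 3 and by 0.76 at 72 h in the eGFP clone, Asns by 1.06 and 0.45, Stc2 by 1.18 and 0.46, and Trib3 by 0.98 and 0.43. Across the 35 genes Pearson's r between these differences was 0.72 and Spearman's rho 0.80, and across all 20269 genes they were 0.14 and 0.24. These are correlations over genes read from the same libraries, so the points are not independent replicates. The 2 differences use separate cultures, but the untreated library of clone 3 also enters the change with DOX in that clone, and the time of the untreated MLL-AF9-i139 cultures is not given.

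**Figure D4:**
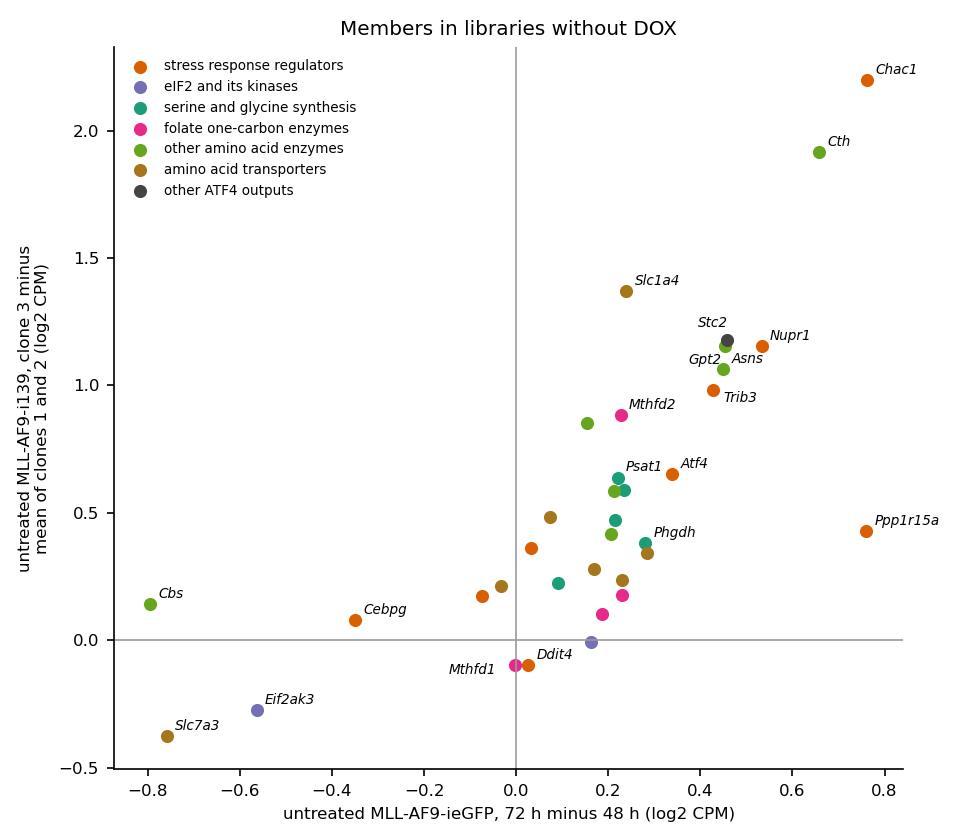
Each point is 1 of the 35 genes in libraries without DOX, coloured by role, with MLL-AF9-ieGFP at 72 h minus 48 h on the horizontal axis and MLL-AF9-i139 clone 3 minus the mean of clones 1 and 2 on the vertical axis, both in log2 CPM. The points in the upper right, 26 of the 35 (74.3%, beside 29.4% of all 20269 genes), were higher in clone 3 and at 72 h, with Chac1 and Cth at the top.

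The promoters of the 39 genes were searched for the core of the C/EBP-ATF response element, the sequence to which ATF4 binds with a C/EBP partner. The letters searched were TGATGNAA, on both strands, from 250 bases before to 50 bases after the RefSeq start sites on GRCm38.p6. Of the 34 members with a promoter sequence 9 held the core (26.5%), beside 3.06% of 12697 genes with at least 10 counts and 4.51% of all 27025 genes with a promoter. They are Asns, Chac1, Got1, Nupr1, Pycr1, Slc1a4, Slc7a11, Trib3 and Vldlr, and Slc7a11 held it in 2 places. The members were named from the ATF4 response, a choice that itself favours genes with the core, so these shares are no test. The 34 also include members below 10 counts, such as Vldlr at 0. Windows are shown for members whose levels are described above, from feedback genes to an enzyme and transporters, read from 5′ to 3′ on the strand of the core, with the core in capitals.
Asns, chr6:7693216-7693241, minus strand: ccagccacaTGATGAAActtcccgca
Trib3, chr2:152344030-152344055, plus strand: ccgcccggcTGATGTAAacctgagct
Chac1, chr2:119351040-119351065, minus strand: tggcaggagTGATGCAAcggcaggga
Slc1a4, chr11:20332701-20332726, plus strand: ggctggagaTGATGCAAcgcaggagg
Slc7a11, first core, chr3:50443663-50443688, minus strand: tcatgtggcTGATGCAAacctggaga
Slc7a11, other core, chr3:50443644-50443669, plus strand: gctgcatgaTGATGCAAattctccag
The first core base lies 23 bases before the start site in Asns, and the cores of Slc7a11 lie on opposite strands. None of the 5 serine and glycine genes and of the 3 folate genes with a promoter sequence held these letters in the window. The 8 measured genes with the core had median log2 changes of -0.07, -0.17 and 0.23 in clones 1, 2 and 3, and the 27 without it, among them genes with no promoter sequence, -0.39, -0.44 and 0.04. Such a match is a description of the sequence, and binding was not measured here.

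The induced microRNA has a 5p and a 3p mature strand, which pair with mRNAs mainly through the seed at bases 2 to 8, shown in capitals in the RefSeq sequences.
mmu-miR-139-5p, chr7:101475382-101475403, plus strand: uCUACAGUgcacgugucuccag
mmu-miR-139-3p, chr7:101475418-101475439, plus strand: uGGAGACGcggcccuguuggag
Matches to these seeds were sought in the longest annotated 3′ UTR of each gene (GENCODE on GRCm38). A match was counted where the 3′ UTR pairs with bases 2 to 8, or with bases 2 to 7 followed by an A. A match to the 5p seed was found in 6 of the 35 measured members (17.1%), beside 22.5% of 14508 genes with at least 10 counts, and a match to the 3p seed in 9 of the 35 (25.7%), beside 17.3%. The 3′ UTRs of the members had a median length of 825 bases, against 1262 for all those genes. Sites are shown for 2 members that fell with the block and for Ddit4, which rose and holds a 5p match, as DNA of the gene's strand with the match in capitals.
Slc7a11, 5p, chr3:50366484-50366505, minus strand: atttcattactgctgCTGTAGA
Ddit4, 5p, chr10:59950298-59950319, minus strand: cacacgcccctcagtACTGTAG
Slc7a1, 3p, chr5:148329812-148329833, minus strand: cagcaggtggtatccCGTCTCC
The sites lie in exon 12 of 12 of Slc7a11, exon 3 of 3 of Ddit4 and exon 13 of 13 of Slc7a1. The Slc7a11 site matches bases 2 to 7 and ends in the added A, and those of Ddit4 and Slc7a1 match bases 2 to 8. The 6 members with a 5p match had median changes of -0.32, -0.39 and 0.09 in clones 1, 2 and 3, and the 29 without it -0.38, -0.44 and 0.04. For the 3p seed the medians were -0.60, -0.50 and 0.26 in the 9 members with a match and -0.32, -0.36 and 0.04 in the other 26. Cebpg held a 5p match to bases 2 to 8 followed by an A, and was at 112%, 109% and 104% of the untreated level in clones 1, 2 and 3. Shmt1 and Slc38a2, which also fell with the block, held a 3p match. Phgdh, Psat1, Shmt2 and Mthfd1 held neither match in their longest 3′ UTR.

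Further genes around the pathway were read from 5 lists, none of whose genes was called in MLL-AF9-i139 without the block (edgeR). Further enzymes of amino acid and folate metabolism had 0 of 29 called and 16 with an unadjusted p under 0.05 (55.2%, beside 20.6% of all genes), and with the block 0 rose and 10 fell, beside 7.05% and 5.33% of all genes. DESeq2 with the block called 12 as lower, beside 7.3% of all genes. The genes that fell included Gclc, the rate-limiting enzyme of glutathione synthesis, with 147 ± 23.3 normalized CPM without and 81.3 ± 14.9 with DOX (SD, n = 3 clones; adjusted p = 0.0934 with edgeR, 0.0271 with the block), and Fpgs, which retains folates in the cell, with 43.4 ± 2.29 and 22.0 ± 8.40 (adjusted p = 0.114 and 0.0254). DESeq2 without the block called 7 of these 29, all lower, beside 8.09% of all genes in either direction.

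The aminoacyl-tRNA synthetases load amino acids onto tRNAs, and many of them are ATF4 targets. Of 20, 6 had an unadjusted p under 0.05, beside 20.6% of all genes. With the block 0 rose and 4 fell, Iars, Kars, Nars and Wars, beside 7.05% and 5.33% of all genes (edgeR). DESeq2 called 0 without the block, beside 8.09% of all genes, and 10 as lower with it, beside 7.3%. Nars was at 462 ± 40.8 normalized CPM without and 321 ± 103 with DOX (SD, n = 3 clones; adjusted p = 0.213 with edgeR, 0.0344 with the block). Of 13 genes of eIF2, its exchange factor eIF2B, kinases of eIF2 and factors related to them, 6 had an unadjusted p under 0.05, beside 20.6% of all genes. With the block 0 rose and 4 fell, Eif2b1, Eif2b3, Eif2b5 and Eif2s3x, beside 7.05% and 5.33% of all genes (edgeR). DESeq2 called 4 without the block, beside 8.09% of all genes, and 4 with it, beside 15.8%. Eif2b5, the catalytic subunit of eIF2B, was at 105 ± 7.50 without and 76.7 ± 6.17 with DOX (adjusted p = 0.107 with edgeR, 0.0278 with the block).

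Further ATF4 targets outside amino acid metabolism were mixed, with 6 of 17 at an unadjusted p under 0.05, beside 20.6% of all genes. With the block 5 were higher and 2 lower (edgeR), beside 7.05% and 5.33% of all genes. DESeq2 called 5 without the block, beside 8.09% of all genes, and 8 with it, beside 15.8%. Jdp2, a bZIP repressor, was at 28.8 ± 3.95 normalized CPM without and 46.7 ± 6.27 with DOX and higher in each of the 3 clones (adjusted p = 0.0962 with edgeR, 0.0154 with the block). Sesn2, a leucine sensor that restrains mTORC1, was at 24.2 ± 6.84 and 40.2 ± 2.55 (adjusted p = 0.118 and 0.0339), and Lonp1, the mitochondrial protease, was one of the genes that fell. In the unfolded protein response of the endoplasmic reticulum, 4 of 18 had an unadjusted p under 0.05, beside 20.6% of all genes. DESeq2 called 1, beside 8.09% of all genes, or 3 with the block, beside 15.8%. These counts were near or below the shares of all genes. With the block in edgeR 3 rose and 0 fell, beside 7.05% and 5.33% of all genes. Those that rose were Edem1, Herpud1 and Sel1l, which act in the disposal of misfolded proteins. Edem1 was at 154 ± 7.18 without and 278 ± 71.5 with DOX (adjusted p = 0.0978 with edgeR, 0.0296 with the block). Of the genes in these 5 lists 0 were called in MLL-AF9-ieGFP, in edgeR without the block (1 with an unadjusted p under 0.05), with it (4 such genes) or in DESeq2.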

How the data were processed

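RNA sequencing of 10 libraries was read at the level of genes. The authors made libraries from RNA depleted of ribosomal RNA (KAPA RNA HyperPrep with RiboErase), and the submitters' processing notes name FastQC 0.11.8, STAR 2.5.3e, featureCounts 1.6.0 and DESeq2 1.22.2 on GRCm38. The deposited values are raw counts per gene, and 14 further columns of per-sample values were not used. The strand setting of the counting is not given in the sources used here, so reads of genes that overlap on opposite strands cannot be told apart, and genes that lie inside other genes may be listed at 0. Vldlr, also listed at 0, overlaps no other gene in the annotation used, and why it has no counts was not tested.

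The members and lists were chosen with earlier results of these data known. Genes with at least 10 counts in total were tested with edgeR 4.0.16 (R 4.3.3, TMM, quasi-likelihood test, Benjamini-Hochberg over all genes tested): 6 MLL-AF9-i139 libraries (19223 genes) for DOX, and a fit of 4 groups over 10 libraries (20269 genes) for MLL-AF9-ieGFP and the interaction. Libraries with the same clone number in the labels come from 1 clone and form pairs. Deviations from the group means correlated by 0.288 to 0.414 within clones, so fits with the clone (or the eGFP time) as a block stand beside the results. Between clones they correlated by -0.315 to -0.0436, values that the centring on group means itself lowers. No libraries agreed within sampling noise (chi-square per degree of freedom of at least 13.5). The change in 1 clone is its log2 CPM with DOX minus that without (prior count of 2). Positions and overlaps came from GENCODE on GRCm38, in a release after the one the authors used. All members could be named, with the value in every library for members past an adjusted p of 0.05 and for 11 set genes. The 3 largest fitted rises and falls of members with at least 1 CPM on average are among these, and of each other list at most 4 genes were named, by the smallest p or a call with the block. Alternatives were DESeq2 1.42.0, RLE size factors, other filters, all 10 libraries in 1 fit, and leaving out each clone or time. The fits were tested on simulated data.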

Additional observations from a re-analysis of the deposited data

Results flagged for a closer look

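For 5 genes every library pair at 48 h moved 1 way in the miR-139 clones and clone 3, at 72 h, moved the other way by at least 0.25 on the log2 scale in each pair, a pattern held by 5.25% of all 20269 genes. The difference between the clones was not tested, since clone 3 is 1 pair. Aldh1l2 changed by 0.53 in clone 3 and by -0.91 and -0.50 in clones 1 and 2. Asns changed by 0.37, against -0.68 and -0.65. Cth changed by 1.6, against -2.46 and -1.75, from 4 counts in each of the DOX libraries of clones 1 and 2. Slc1a4 changed by 0.26, against -0.60 and -0.80, and Stc2 by 0.48, against -1.39 and -1.26. In the eGFP clone these 5 genes were higher with DOX at 48 h and at 72 h.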

How the results depend on the processing

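Of 263 values of single members under another setting, 203 kept their direction and side of the threshold, 52 kept their direction and passed the threshold, and 8 changed direction. With 1 clone left out, Eif2ak4 lay between -0.0040 (without clone 2, and -0.0033 with the block) and 0.097 on the log2 scale, Asns between -0.65 and 0.12 (0.11 without clone 1) and Cth between -2.57 (without clone 3, and -2.58 with the block) and 1.38. Cth became -1.25 with DESeq2 and the block and -0.075 with the edgeR block. In MLL-AF9-i139 the counts of members higher and lower were 0 and 0 as reported, 1 and 1 with DESeq2 or in the fit of all 10 libraries, 1 and 8 with DESeq2 and the block, 3 and 6 with the replicate block, and 1 higher with the filter of at least 1 count. Leaving out 1 clone gave 0 to 5 higher and 0 to 20 lower, and a median log2 change from -0.385 (without clone 3, and -0.384 with the block) to 0.017. The highest counts came without clone 3, which has the 72 h libraries, at 2 and 17, and at 5 and 20 with the block. Without clone 2 and with the block they were 1 and 1. In MLL-AF9-ieGFP the replicate block changed no call, and 1 member was higher with the 48 h cultures alone and the block. For the interaction DESeq2 with the block called 1 lower, leaving out 1 clone or time gave 0 to 1 higher and 0 to 21 lower (12 without clone 3 and without the block), and the 48 h cultures alone, a choice made after seeing the data, gave 1 and 6, or 2 and 20 with the block. RLE size factors and stricter filters changed no count. Slc7a3 and Cth were read from few counts, which limits their precision. The cause of these shifts was not tested.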
